A study of Mus musculus with 20 samples.

Results

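Sorted wild-type (WT) Flk1(+) mesoderm was compared with the same kind of cells after 4 more days of culture without dexamethasone (Dex), the condition called Dex-. The comparison took in 4 of the 20 Affymetrix MOE430v2 arrays of the study: WT Flk1(+) replicates 1 and 2, and WT Dex- replicates 1 and 2. Members were all 18193 genes with a probe set of a single symbol, each represented by whichever of its probe sets averaged highest across the 20 arrays. Flk1(+) cells had been sorted for Flk1 and PDGFRα after 4 days of differentiation on type IV collagen, and Dex- cells were such sorted cells kept on type IV collagen afterwards. All cells were derivatives of the WT mouse ES cell line J1. WT Flk1(+) replicate 1 came from the parental J1 line, which carries no transgene. WT Flk1(+) replicate 2 and both WT Dex- arrays came from 1 J1 clone carrying Gata4GR, a fusion of Gata4 with the hormone-binding part of the glucocorticoid receptor that is driven by a CAG promoter. No Dex was given to any of these 4 samples, so the fusion protein was present in 3 of them but not activated by its ligand. The matched samples of the Dnmt3a-/- Dnmt3b-/- double knockout (DKO), namely DKO Flk1(+) replicate 1 from the parental line, DKO Flk1(+) replicate 2 from a transgenic clone, and DKO Dex- replicates 1 and 2 from that clone, were used for comparison. WT ES cells and WT Dex+ cells, the latter cultured with 100 nM Dex, served as reference levels.

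Flk1 (the gene Kdr) is the main receptor of vascular endothelial growth factor. It marks early mesoderm that can give rise to endothelium, blood, cardiac muscle and the mural cells that wrap vessels. Mural cells comprise smooth muscle cells and pericytes. They are recognised by contractile proteins such as smooth muscle α-actin (SMA, the gene Acta2) and lie in a matrix of collagens and laminins. Contractile genes are controlled largely by serum response factor and its actin-regulated coactivators, and genes of spread, attached cells by YAP with TEAD factors.

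Values are log2 expression values, so a difference of 1 is a 2-fold difference. Calls of risen or fallen genes required an adjusted p under 0.05 in limma (Benjamini-Hochberg, over all 18193 genes) together with a 2-fold or larger change. Errors after ± are standard errors of the change in the fit to all 20 arrays. In bulk RNA, fewer cells of a type and less RNA per cell cannot be told apart. Of the 18193 genes, 1362 (7.49%) rose and 1417 (7.79%) fell in Dex- cells, and the median change over all genes was 0.01. The arrays of the groups did not overlap for 2777 of these 2779 genes. Over all genes, called or not, 56.6% had arrays that did not overlap. At least 8-fold changes were found for 186 risen and 120 fallen genes, and at least 64-fold changes for 9 risen and 8 fallen genes.

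The Flk1(+) arrays differed more from each other than the Dex- arrays did. Between the Flk1(+) replicates 880 genes were at least 2-fold apart, with a correlation of 0.979, and between the Dex- replicates 244 genes were, with a correlation of 0.991. Line and chip lot differed between the Flk1(+) replicates, and the 2 were scanned on different days, so these cannot be told apart. All 2779 called genes moved in the called direction against each Flk1(+) array on its own. At least 2-fold, 2235 did so against the parental array and 2608 against the array of the transgenic clone. The genes had been called from these same arrays, so the agreement in direction was largely fixed in advance. Scan day 4 held Flk1(+) replicate 1 and Dex- replicate 1, and within that day 2778 of the called genes moved in the called direction. These 2 arrays differed in line and chip lot, and the genes had been called with them. Fitted without the parental array, 1671 genes rose and 1516 fell. Without the array of the clone, 1112 rose and 1446 fell.

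The genes whose products had been used for the sort were high in Flk1(+) cells and low afterwards. Kdr read 11.96 and 11.75 in the Flk1(+) arrays and 7.45 and 8.01 in the Dex- arrays, and fell by 4.13 ± 0.31 (adjusted p = 1.59e-07). Pdgfra, which encodes PDGFRα, read 11.89 and 12.83 before and 6.53 and 6.79 after culture, and fell by 5.70 ± 0.23 (adjusted p = 7.8e-10). The Dex- arrays read above the WT ES arrays, which were at 6.39 and 6.22 for Kdr and 6.03 and 5.81 for Pdgfra. Of 14 genes for VEGF and PDGF receptors with their ligands, 4 rose and 4 fell. The Kit receptor fell by 2.29. Pdgfrb, the PDGF receptor of mural cells, rose by 3.43 ± 0.46, from 8.96 and 7.18 to 11.53 and 11.47. Rises were also found for Nrp2 (2.40), Nrp1 (1.76) and Vegfa (1.65). Pdgfc rose by 2.71 but rested on the clone array: it read 9.97 in the parental and 5.72 in the clone Flk1(+) array against 10.10 and 11.01 in Dex- cells, and without the clone array the change was 0.58 and did not pass.

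**Figure D1:**
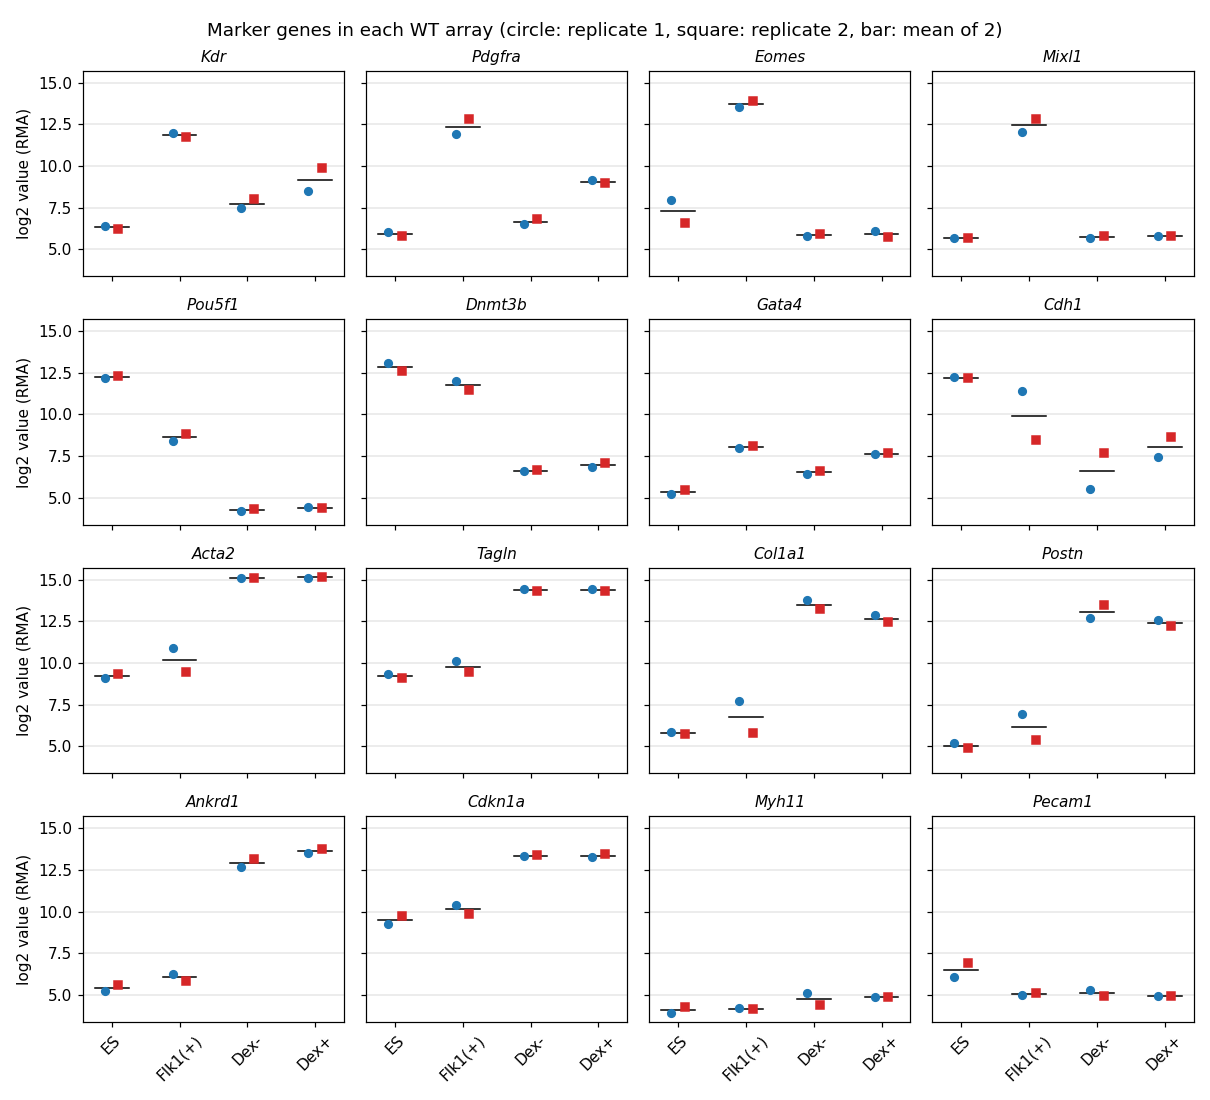
Log2 expression value (y axis) of 16 marker genes in every WT array of ES cells, Flk1(+) mesoderm, Dex- cells and Dex+ cells (x axis), with replicate 1 as circles, replicate 2 as squares and their mean as a bar. Kdr, Pdgfra, Eomes and Mixl1 stand high in the Flk1(+) arrays, Acta2, Tagln, Col1a1, Postn and Ankrd1 in the Dex- and Dex+ arrays, and Myh11 and Pecam1 are at most 6.89 in all of them.

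Gata4, the factor carried by the transgene, read 7.99 and 8.12 in Flk1(+) arrays and 6.46 and 6.62 in Dex- arrays. It fell by 1.52 ± 0.20 (adjusted p = 3.06e-05), and the values of the parental and the transgenic Flk1(+) array lay 0.13 apart. The change was -0.96 with the mean of all Gata4 probe sets and then did not reach 2-fold. Whether these probe sets detect the transcript of the Gata4GR fusion was not tested, so the values may not report the transgene. Of 12 glucocorticoid receptor target genes, none rose and 4 fell, namely the metallothioneins Mt1 (by 2.84) and Mt2 (by 2.70), Fkbp5 (by 2.58), a chaperone of steroid receptors, and Sgk1 (by 1.72), a kinase. Tsc22d3, Per1 and Klf9 did not pass. The fall of Mt1 rested on a probe set of the kind that may match several transcripts. Without such probe sets the change was -0.38.

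The largest decreases of the whole comparison were those of nascent mesoderm genes. Most of these, though not all, are switched on as cells leave the epiblast through the primitive streak and are then extinguished. Of 21 measured, none rose and 17 fell, with a median change of -2.68. Tdgf1, a coreceptor of Nodal, read 13.04 and 13.77 in Flk1(+) and 4.28 and 4.37 in Dex- arrays and fell by 9.08 ± 0.38 (adjusted p = 7.8e-10), the largest change of any called gene. Eomes, a T-box factor of mesendoderm, read 13.56 and 13.91 before and 5.81 and 5.93 after culture, and fell by 7.87 ± 0.33. Lhx1, a LIM homeobox factor of the streak, went from 10.94 and 12.06 to 4.70 and 4.34 and fell by 6.98. All 3 were among the lower 50% of values on the Dex- arrays, whose medians were 6.82 and 6.83. Mixl1, a homeobox factor of the streak, fell by 6.69, from 12.03 and 12.83 to 5.65 and 5.83. Cyp26a1, which degrades retinoic acid, fell by 6.13, from 12.63 and 12.84 to 6.76 and 6.45. The growth factor gene Fgf5 fell by 6.08, from 10.04 and 10.95 to 4.73 and 4.10. Further decreases were those of the Notch ligand Dll1 (-4.48), Sp5 (-4.36), Mesp1 (-3.17), Gsc (-2.74), Wnt3 (-2.68) and Aplnr, the apelin receptor (-2.52). Aplnr still read 10.80 and 10.26 in Dex- cells. Fgf17, Msgn1, Cer1 and Wnt3a did not pass.

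Genes of the pluripotent state fell as well. Of 22 measured, 13 fell and none rose, and the median change was -1.98. Lefty2 fell by 5.98 and Nodal by 4.64, the first an inhibitor of the second. Pou5f1, the POU factor that maintains ES cells, read 8.42 and 8.82 in Flk1(+) arrays against 12.21 and 12.29 in WT ES arrays, and 4.20 and 4.33 in Dex- arrays, and fell by 4.35. Nanog fell by 3.62, from 7.45 and 7.63 to 3.94 and 3.91. L1td1 fell by 4.55, Dppa5a by 4.40, Zfp42 by 3.52, Sall4 by 3.18 and Sox2 by 2.56. The extent depended on the Flk1(+) array, since the median change of this list was -2.80 against the parental and -1.08 against the clone array. Dppa4 illustrates this with 9.24 in the parental and 6.31 in the clone array, against 7.27 and 6.61 after culture, and did not pass. Otx2, an epiblast and forebrain factor, fell by 6.55, from 10.16 and 11.84 to 4.23 and 4.66. Other large decreases were those of Car2, a carbonic anhydrase, by 6.32 (from 12.04 and 12.41 to 5.56 and 6.25), and Upp1, a uridine phosphorylase, by 5.69 (from 11.59 and 12.48 to 6.32 and 6.36).

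Of all 1417 genes that fell, 291 had been at least 2-fold higher in WT Flk1(+) than in WT ES cells, 211 at least 2-fold higher in ES cells, and 915 within 2-fold of their ES level. The decreases took in genes gained on entry into mesoderm, such as Eomes, Mixl1 and Lhx1, and genes that had been higher in ES cells, such as Pou5f1. Lin28a, an RNA-binding protein of early embryonic cells, fell by 2.91, and Hmga2, a chromatin protein of embryonic mesenchyme, by 1.84, though both stayed at 8.94 or higher. Of 10 measured genes of this class, 4 fell and none rose.

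**Figure D2:**
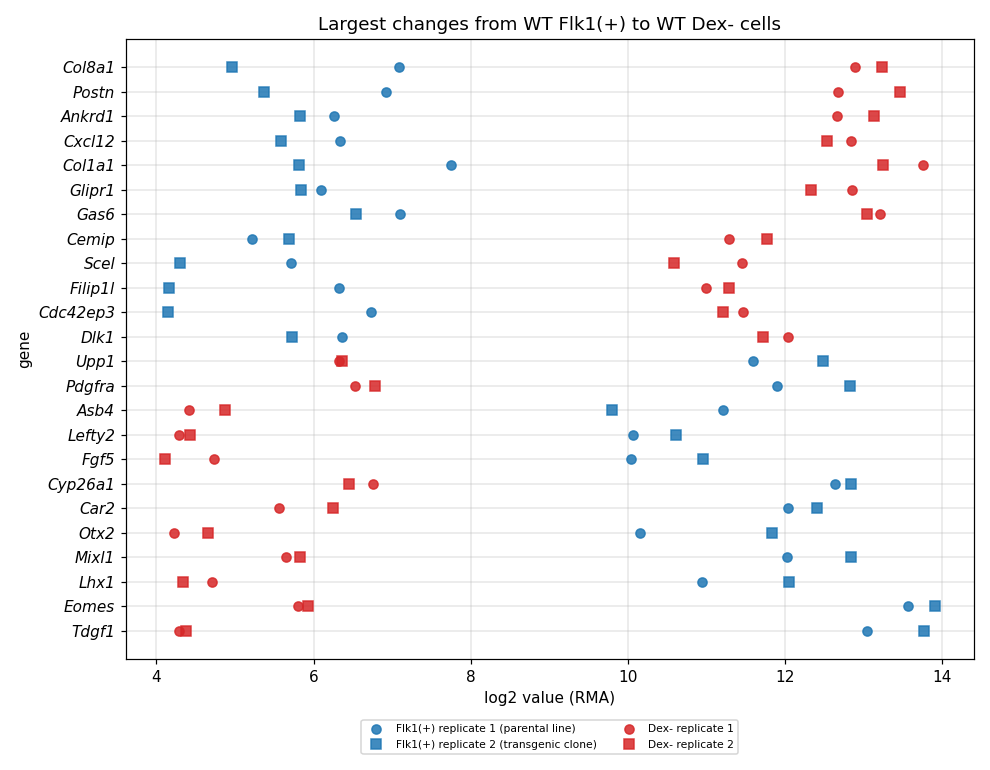
Log2 expression value (x axis) of the 12 genes with the largest increase and the 12 with the largest decrease (y axis), with Flk1(+) arrays in blue, Dex- arrays in red, replicate 1 as circles and replicate 2 as squares. The groups are separated for all 24 genes, and Col8a1, Filip1l and Cdc42ep3 read over 2 higher in the parental than in the clone Flk1(+) array.

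The largest increases were led by genes of the connective tissue matrix. Of 24 measured genes for fibrillar collagens and their partners, 18 rose and none fell, with a median change of 2.46. Col8a1, a short-chain collagen of vessel walls, read 7.09 and 4.97 in Flk1(+) and 12.90 and 13.24 in Dex- arrays, and rose by 7.04 ± 0.50 (adjusted p = 9.76e-08). Postn, the matricellular protein periostin, rose by 6.93 ± 0.40, from 6.92 and 5.37 to 12.68 and 13.46. The chains of type I collagen rose by 6.72 ± 0.42 (Col1a1, from 7.75 and 5.82 to 13.76 and 13.24) and 5.57 (Col1a2, from 10.03 and 7.51 to 14.27 and 14.40). In each of these genes the parental Flk1(+) array lay nearer to the Dex- arrays than the clone array did. Col3a1 rose by 5.31, Loxl1, a collagen crosslinking enzyme, by 5.00, Thbs1 by 4.95, Col5a2 by 4.52 and Dcn, the collagen-binding proteoglycan decorin, by 3.12. Fn1, which encodes fibronectin, was already at 13.90 and 14.10 in Flk1(+) arrays and read 13.55 and 13.88 afterwards, which did not pass. Eln, for elastin, did not pass either. Of the 16 basement membrane genes, 10 rose and none fell, among them Col4a5 (5.18), Nid1 (3.28), Nid2 (2.77), Col4a2 (2.75), Lama1 (2.56) and Lamc1 (2.49). Their median change was 0.86 against the parental and 2.10 against the clone array. Without the clone array, 7 rose and 2 fell.

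Enzymes that cut matrix and their inhibitors rose together, 11 of 18 with none falling. Timp3, a metalloprotease inhibitor, rose by 5.03, from 6.82 and 6.54 to 11.49 and 11.91. Plat, tissue plasminogen activator, rose by 4.19, the aggrecanase Adamts5 by 3.66, Timp2 by 3.28, and the gelatinase Mmp2 by 3.06, from 9.93 and 9.30 to 12.60 and 12.76. Mmp3, Mmp9, Mmp10 and Mmp13 did not pass.

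Genes by which cells attach also rose. Of 21 integrin and focal adhesion genes, 11 rose and 1 fell (Itga9, by 1.20). Parva, a linker between integrins and actin, rose by 3.59, Itga3 by 3.51, talin (Tln1) by 2.35 and Zyx by 1.75. Itgav rose by 1.90, and by 0.86, below 2-fold, with the mean of its probe sets. Of 9 caveola genes, 5 rose: Cav1 by 5.42, from 9.65 and 7.01 to 13.85 and 13.67, then Ehd2 (4.74), Cavin1 (4.16), Cavin2 (3.08) and Cav2 (2.52). The muscle member Cavin4 fell by 1.18, which did not pass without the clone array (-1.05) or without Dex- replicate 2 (-0.98). Among genes of mesenchymal adhesion and filaments, 6 of 14 rose. They included Cd44, the hyaluronan receptor (4.62), Vcam1 (4.30), S100a6 (4.29, from 10.34 and 6.34 to 12.65 and 12.60) and Vim, for the filament protein vimentin (2.07).

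Smooth muscle contractile genes were the markers by which the mural fate, which the study reported from SMA staining, could be checked. Of 22 measured, 14 rose and 2 fell, and the median change was 1.93. Acta2 read 10.91 and 9.47 in Flk1(+) and 15.11 and 15.09 in Dex- arrays, and rose by 4.91 ± 0.40 (adjusted p = 4.04e-07). Actg2, the enteric smooth muscle actin, went from 4.48 and 4.20 to 10.15 and 8.70 and rose by 5.08. Tagln, an actin-bundling protein of smooth muscle, rose by 4.59, from 10.12 and 9.44 to 14.41 and 14.33. The myosin light chain gene Myl9 rose by 4.87, Csrp1 by 3.36, and the tropomyosins Tpm2 and Tpm1 by 3.34 and 3.19. Cnn1, for calponin, rose by 1.69 to 7.63 and 8.15. Lmod1, for leiomodin, rose by 2.16 and Synpo2 by 1.21. Other members did not pass. Myh11, the smooth muscle myosin heavy chain, read 4.19 and 4.17 before and 5.14 and 4.42 after culture. Smtn read 6.64 and 6.75 before and 7.23 and 7.28 after culture, with an adjusted p of 0.0148 but under 2-fold, and Mylk changed by -0.23. The coactivator Myocd, counted with the regulators, changed by 0.74 and did not pass. Itga8 fell by 1.92 and Pdlim3 by 1.60.

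Pericyte markers were divided. Of 12 measured, 3 rose and 1 fell, and the median change was 0.03. Besides Pdgfrb, Angpt1 rose by 2.40 and Mcam by 1.81. Rgs5, a regulator of G protein signalling and a common pericyte marker, fell by 2.81, from 10.11 and 8.30 to 5.55 and 7.24. Notch3 read 10.73 and 10.14 before and 9.45 and 9.80 after culture, and Cspg4 (NG2) changed by 0.12. Neither passed. Among 23 factors that regulate smooth muscle and mesenchyme, 7 rose and 5 fell. Snai2 rose by 3.95, from 8.94 and 6.92 to 11.82 and 11.93. Tbx18, Twist2, Prrx1 and Prrx2 rose by 1.86, 1.66, 1.64 and 1.62. Twist1 fell by 2.87, from 8.05 and 8.34 to 5.48 and 5.18, Hey1, a Notch-controlled repressor, fell by 2.72, and Foxc1 fell by 1.66. Srf itself changed by -0.42 and did not pass, and its coactivator Mrtfa rose by 1.23.

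**Figure D3:**
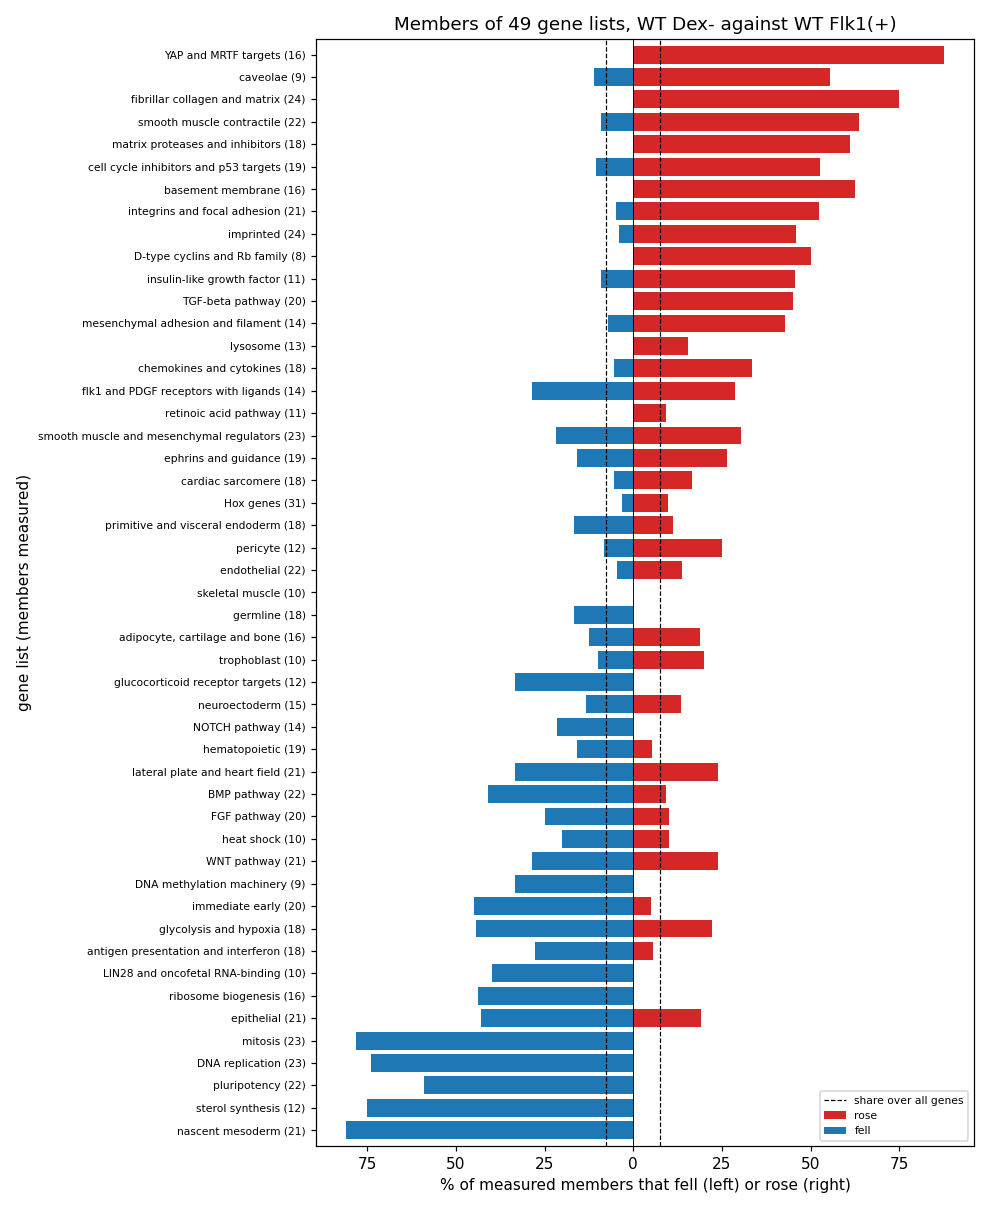
Share of the measured members of each of 49 gene lists that rose (right, red) or fell (left, blue) in WT Dex- against WT Flk1(+) cells, in % (x axis), with lists ordered by their median change (y axis). Dashed lines mark the shares over all genes, 7.49% risen and 7.79% fallen; mitosis, DNA replication and nascent mesoderm lie far to the left and YAP and MRTF targets far to the right.

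Target genes of YAP and of actin-regulated coactivators rose in 14 of 16 measured cases and none fell. Their median change was 2.52, close to that of caveola genes (2.51) and of fibrillar collagen and matrix genes (2.46). It was 1.83 against the parental and 2.47 against the clone array, and fibrillar collagen and matrix genes were higher in both cases (2.13 and 2.77). Ankrd1, a nuclear ankyrin repeat protein of muscle, read 6.26 and 5.83 in Flk1(+) and 12.66 and 13.13 in Dex- arrays, and rose by 6.85 ± 0.47 (adjusted p = 7.22e-08). Axl, a receptor tyrosine kinase, rose by 5.20, from 7.12 and 5.08 to 11.11 and 11.49. Its ligand Gas6, which was on no list, rose by 6.31 ± 0.32, from 7.10 and 6.54 to 13.21 and 13.05. Edn1, for endothelin, rose by 4.54, and Ccn2, for connective tissue growth factor, by 4.31, from 10.25 and 8.33 to 13.47 and 13.73. Nuak2 and Dlc1 did not pass.

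RefSeq promoters, from 250 bases before to 50 bases after the start (GRCm38.p6), were available for 14452 of the tested genes and for 10 of the YAP and MRTF targets. The TEAD motif CATTCC, on either strand, stood in 7 of these 10, against 15.3% of all promoters and 19.4% of those of risen genes. Promoters of the 2 risen members with the largest change among those holding it are printed with the motif in capitals, for Ankrd1 (chr19:36119795-36120094, minus strand) and Axl (chr7:25788684-25788983, minus strand). Neither match overlapped another motif searched.
Ankrd1: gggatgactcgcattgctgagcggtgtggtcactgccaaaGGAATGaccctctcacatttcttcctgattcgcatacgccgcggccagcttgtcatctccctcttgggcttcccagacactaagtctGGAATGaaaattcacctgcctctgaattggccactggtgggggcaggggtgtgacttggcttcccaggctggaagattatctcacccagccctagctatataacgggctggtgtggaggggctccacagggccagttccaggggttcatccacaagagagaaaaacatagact
Axl: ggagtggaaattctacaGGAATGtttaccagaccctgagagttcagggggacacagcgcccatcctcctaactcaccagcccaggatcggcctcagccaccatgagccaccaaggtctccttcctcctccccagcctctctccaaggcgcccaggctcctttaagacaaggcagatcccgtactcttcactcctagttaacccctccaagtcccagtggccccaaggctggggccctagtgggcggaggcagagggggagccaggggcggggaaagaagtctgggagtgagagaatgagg

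In the smooth muscle contractile list 18 promoters were available. The CArG box, the site of serum response factor, stood in 2 of them (Cnn2 and Myl9). It stood in 1.58% of all promoters, 2.7% of those of risen genes and 2.11% of those of fallen genes. It also stood in 2 of 17 nascent mesoderm and 2 of 15 immediate early promoters, lists in which more genes fell than rose. The TEAD motif stood in 7 contractile promoters, among them those of Mylk and Smtn, which did not pass, and Pdlim3, which fell. The promoter of Myl9 (chr2:156775214-156775513, plus strand) is printed with the CArG box in capitals, as the risen member with the larger change of Cnn2 and Myl9.
Myl9: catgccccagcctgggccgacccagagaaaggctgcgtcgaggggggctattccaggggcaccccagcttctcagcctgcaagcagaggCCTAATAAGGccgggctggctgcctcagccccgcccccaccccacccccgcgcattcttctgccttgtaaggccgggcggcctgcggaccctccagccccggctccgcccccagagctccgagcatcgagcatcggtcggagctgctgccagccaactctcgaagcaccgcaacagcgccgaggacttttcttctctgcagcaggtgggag

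Genes of the TGF-β family were counted in separate TGF-β and BMP lists. Of 20 TGF-β pathway genes, 9 rose and none fell. Inhba, the activin A subunit, rose by 5.25, from 6.22 and 5.46 to 10.61 and 11.57. Tgfb2 read 9.03 in the parental and 4.87 in the clone Flk1(+) array and 11.84 and 12.19 in Dex- arrays, and rose by 5.06. Tgfb3 rose by 3.96, the receptor Tgfbr2 by 2.44, the inhibitory Smad7 by 1.46 and the matrix protein Tgfbi by 3.50, whereas Tgfb1 (-0.63) did not pass. Among 22 BMP pathway genes, 2 rose and 9 fell. The targets Id2 (-2.72), Id1 (-2.45), Id3 (-1.20) and Msx1 (-3.10) were among the fallen, together with the extracellular regulator Bmper (-3.61) and the ligands Bmp2 (-2.37), Bmp7 (-1.53) and Bmp5 (-1.40). Bmp4, counted with the lateral plate genes, rose by 2.83, from 10.95 and 7.84 to 12.20 and 12.25, and by 1.28 without the clone array, which did not pass. Without the parental array 5 BMP pathway genes rose and 7 fell.

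Of 21 WNT pathway genes, 5 rose and 6 fell. Axin2, a target and feedback inhibitor, fell by 3.06, from 10.39 and 10.15 to 7.13 and 7.30. The secreted antagonists divided, since Frzb fell by 4.17 and Dkk1 by 3.44 while Dkk2 rose by 3.54 and Dkk3 by 2.67. Wnt9a rose by 3.29 and Wnt4 by 2.48, and the WNT amplifier Rspo3 fell by 2.99. In the FGF pathway 2 of 20 genes rose and 5 fell. Spry2 fell by 2.04 and Etv5 by 2.63, both induced by FGF signals, as did the ligands Fgf15 (-3.15) and Fgf3 (-1.99). Fst, the activin-binding protein follistatin, which was kept on this list, fell by 5.51, from 10.73 and 11.33 to 4.79 and 6.26. Of 14 NOTCH pathway genes, 3 fell, namely Dll3 (-4.87), Nrarp (-2.11) and Notch1 (-1.36, or -0.87 with the mean of its probe sets), and none rose. Of 11 retinoic acid genes, 1 rose (Aldh1a1, which makes retinoic acid, by 2.93). In the insulin-like growth factor list 5 of 11 rose, with Igfbp2 (2.66), Igf1r (2.05) and Igf1 (1.42) among them, and Insr, the insulin receptor, fell.

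Immediate early genes, which respond within minutes to serum or handling, fell more often than they rose: 9 of 20 fell and 1 rose. Fosb read 10.62 and 10.63 before and 5.35 and 4.92 after culture and fell by 5.49. Egr2 fell by 5.29, Egr1 by 2.83 (12.53 and 12.58 to 8.69 and 10.77) and Fos by 1.71 (13.96 and 13.67 to 12.15 and 12.07). Ier3 rose by 1.63. Flk1(+) cells were harvested after cell sorting, and the part of sorting in these levels was not tested. Of 10 heat shock genes, 1 rose (Hspb1, by 2.14) and 2 fell.

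Genes of cell division fell. Of 23 DNA replication genes, 17 fell and none rose, with a median change of -1.46, and of 23 mitosis genes, 18 fell and none rose, with a median of -1.30. Cdc6, which loads the replicative helicase, read 10.82 and 11.34 in Flk1(+) and 8.80 and 7.85 in Dex- arrays and fell by 2.75. Cdt1, its partner, fell by 2.15, and decreases were also found for Mcm10 (-2.62), Lig1 (-2.08) and Mcm3 (-1.94). The spindle checkpoint kinases Bub1 and Bub1b fell by 2.25 and 2.06, the kinetochore protein Cenpf by 2.11 and the proliferation marker Mki67 by 1.78, from 12.04 and 11.83 to 10.38 and 9.92. Mki67 remained in the upper 25% of values on both Dex- arrays. Dex- replicate 1 lay above replicate 2 in each of these genes, and fitted without replicate 2 the number of mitosis genes that fell was 10. Plk1, Cdk1 and Foxm1 did not pass.

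Inhibitors of the cell cycle and p53 targets rose in 10 of 19 cases and fell in 2. Cdkn1a (p21) read 10.42 and 9.84 before and 13.34 and 13.37 after culture and rose by 3.22. Cdkn2b rose by 3.85, Gadd45g by 3.77, Cdkn2a by 2.96 and Cdkn1c by 2.63. Mdm2 rose by 1.89 and Ccng1 by 1.72, both p53 targets. Gas1 fell by 1.55 and Sesn1 by 1.23. Of 8 D-type cyclin and Rb family genes, 4 rose, with Ccnd2 at 3.84 (from 9.58 and 9.32 to 13.14 and 13.44), while Ccnd1 (-0.23) did not pass. Ccnd3 rose by 1.75, and by 0.74, below 2-fold, with the mean of its probe sets.

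Promoters of the cell cycle lists were searched in the same way. The E2F motif, searched as TTTCCCGC, TTTGGCGC and TTTCGCGC on either strand, stood in 8 of 19 DNA replication promoters against 3.25% of all promoters and 6.94% of those of fallen genes. The cell cycle homology region TTTGAA stood in 12 of 18 mitosis promoters against 15.7% of all and 18.8% of those of fallen genes. For each motif the 2 fallen members with the largest change among those holding it are printed, with the motif in capitals. These are Cdc6 (chr11:98907901-98908200, plus strand) and Cdt1 (chr8:122567765-122568064, plus strand) for E2F, and Cenpf (chr1:189688037-189688336, minus strand) and Bub1b (chr2:118597961-118598260, plus strand) for the homology region. None of these matches overlapped another motif searched.
Cdc6: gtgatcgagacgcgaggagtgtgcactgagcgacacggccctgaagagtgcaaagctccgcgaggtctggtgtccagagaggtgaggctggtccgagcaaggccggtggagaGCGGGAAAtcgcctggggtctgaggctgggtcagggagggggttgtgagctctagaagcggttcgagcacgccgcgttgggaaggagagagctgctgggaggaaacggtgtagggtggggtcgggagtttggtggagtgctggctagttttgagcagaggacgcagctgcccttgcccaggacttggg
Cdt1: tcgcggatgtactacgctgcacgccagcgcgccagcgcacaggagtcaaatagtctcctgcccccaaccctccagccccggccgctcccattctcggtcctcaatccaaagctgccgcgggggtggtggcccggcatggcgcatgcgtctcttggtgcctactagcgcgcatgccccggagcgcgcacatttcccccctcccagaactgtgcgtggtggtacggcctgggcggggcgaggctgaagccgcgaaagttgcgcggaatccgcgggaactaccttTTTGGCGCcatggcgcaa
Cenpf: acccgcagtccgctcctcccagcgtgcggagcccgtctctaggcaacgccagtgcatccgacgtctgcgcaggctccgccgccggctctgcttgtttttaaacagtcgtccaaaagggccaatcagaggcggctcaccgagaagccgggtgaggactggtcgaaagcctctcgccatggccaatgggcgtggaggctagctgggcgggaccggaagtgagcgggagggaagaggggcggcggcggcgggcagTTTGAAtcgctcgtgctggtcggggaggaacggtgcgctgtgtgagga
Bub1b: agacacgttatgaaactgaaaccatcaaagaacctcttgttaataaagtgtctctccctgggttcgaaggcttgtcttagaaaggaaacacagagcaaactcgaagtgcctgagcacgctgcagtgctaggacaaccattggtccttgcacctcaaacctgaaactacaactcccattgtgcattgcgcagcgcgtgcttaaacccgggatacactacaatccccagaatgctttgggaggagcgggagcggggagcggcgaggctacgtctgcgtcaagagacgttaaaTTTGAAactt

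Biosynthetic genes fell too. Of 12 genes of sterol synthesis, 9 fell and none rose, and the median change was -2.15. Idi1, an isomerase of the mevalonate pathway, fell by 3.18, from 10.99 and 11.79 to 8.19 and 8.23. Insig1, a sensor of sterol levels, fell by 2.85, and decreases were found for Hmgcs1 (-2.62), Msmo1 (-2.56), Cyp51 (-2.45) and Fdps (-2.38). Ribosome biogenesis genes fell in 7 of 16 cases with no rise, led by Dkc1 (-2.14), the pseudouridine synthase dyskerin, and Polr1b (-1.63), a subunit of RNA polymerase I. Glycolysis and hypoxia genes fell in 8 and rose in 4 of 18 cases. The fallen included Pfkl (-3.12), Aldoc (-2.87), Egln3 (-2.78), Pdk1 (-1.70) and Ldha (-1.65). The risen included Slc2a1 (1.61), a glucose transporter, and P4ha1 and P4ha2 (1.79 and 2.05), which hydroxylate collagen. Bnip3 fell by 2.09, but its Flk1(+) arrays read 12.33 and 10.08, and without the parental array the change was -0.97. Without the parental array 5 genes of this list fell, and without the clone array 2 rose. Of 13 lysosome genes 2 rose, Lgmn (2.23) and Ctsd (1.30), the latter at 0.86 and not passing without the clone array.

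All 9 sterol synthesis promoters available held the CCAAT box (CCAAT on either strand), against 42% of all promoters and 45.8% of those of fallen genes. The box was not particular to this list, as it stood in 15 of 18 mitosis and 13 of 19 DNA replication promoters. None of the 9 sterol synthesis promoters held the consensus sterol regulatory element, found in 0.0623% of all promoters. The promoter of Idi1 (chr13:8885356-8885655, plus strand) has its CCAAT boxes in capitals.
Idi1: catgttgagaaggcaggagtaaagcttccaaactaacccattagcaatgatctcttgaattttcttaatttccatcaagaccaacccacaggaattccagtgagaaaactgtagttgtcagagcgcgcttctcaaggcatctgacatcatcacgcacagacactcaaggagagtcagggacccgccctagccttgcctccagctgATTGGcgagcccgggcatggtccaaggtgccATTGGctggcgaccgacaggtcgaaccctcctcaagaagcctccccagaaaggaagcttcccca
In all, 10 motifs were searched in these promoters on both strands. The AP-1 site (TGACTCA or TGAGTCA) stood in 6.23% of promoters of risen genes, 3.43% of those of fallen genes and 5.33% of all. The remaining motifs, CACCCCAC of sterol genes, the SMAD palindrome GTCTAGAC and the T-box motif TCACACCT, stood in 4.56%, 0.279% and 0.837% of promoters of risen genes, against 3.76%, 0.291% and 1.29% of all. In promoters of fallen genes they stood in 3.08%, 0.439% and 0.791%. Of the 9 sterol synthesis promoters 1 (Hmgcs1) held CACCCCAC, and of 17 nascent mesoderm promoters 1 (Mesp1) held the T-box motif.

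Enzymes of DNA methylation changed unevenly. Dnmt3b, a de novo methyltransferase, read 12.03 and 11.47 in Flk1(+) and 6.59 and 6.65 in Dex- arrays and fell by 5.13 ± 0.22 (adjusted p = 8.78e-10). Dnmt3a, the other de novo enzyme, read 8.81 and 8.43 before culture and at most 8.34 after it, a change of -0.45 ± 0.19 that did not pass (adjusted p = 0.0965). Uhrf1, the partner of the maintenance enzyme, fell by 1.59, and Tet1, which oxidises methylcytosine, by 2.21. Dnmt1 changed by -0.06.

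Imprinted genes rose in 11 of 24 cases and fell in 1. Dlk1, a Notch ligand relative of fetal mesenchyme, rose by 5.84 ± 0.30, from 6.36 and 5.72 to 12.04 and 11.72. Nnat rose by 4.24, Igf2 by 3.75 (12.33 and 9.49 to 14.54 and 14.76), Plagl1 by 3.55 and Igf2r by 2.79. Mest, Rian and Sgce rose by 2.40, 2.19 and 1.85. Phlda2, a growth restrainer of placenta, fell by 5.14, from 10.49 and 10.54 to 5.20 and 5.55. Peg3 and Snrpn did not pass.

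Chemokine and cytokine genes rose in 6 of 18 cases and fell in 1. Cxcl12, a chemokine of stromal cells, rose by 6.72 ± 0.29 (adjusted p = 8.78e-10), from 6.34 and 5.59 to 12.84 and 12.53. Its receptor Cxcr4 fell by 4.54, from 8.57 and 8.50 to 4.13 and 3.85. Ptgs2, the inducible prostaglandin synthase, rose by 5.38, and read 9.44 in the parental and 4.17 in the clone Flk1(+) array against 12.27 and 12.11 in Dex- arrays. Ccl2, Lif and Ccl7 rose by 3.20, 3.16 and 2.89. Genes of antigen presentation fell in 5 of 18 cases and rose in 1. The class I heavy chains H2-K1 and H2-D1 fell by 2.95 and 2.78, while the light chain B2m rose by 1.45. This count depended on single arrays. It was 10 fallen without the clone array, 3 without the parental array or Dex- replicate 1, and 2 without Dex- replicate 2, and B2m changed by 0.84 without the clone array, which did not pass.

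Other large increases were on no list. Glipr1, a secreted protein of the CAP family, rose by 6.62 ± 0.27, from 6.09 and 5.84 to 12.85 and 12.33. Cemip, which degrades hyaluronan, rose by 6.07 ± 0.22, from 5.22 and 5.69 to 11.28 and 11.77. Scel, for sciellin, rose by 6.01, from 5.71 and 4.30 to 11.45 and 10.59. Filip1l rose by 5.90 and Cdc42ep3, an effector of the small GTPase Cdc42, by 5.89, and both read over 2 higher in the parental than in the clone Flk1(+) array (6.33 against 4.16, and 6.74 against 4.15).

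Most markers of other fates of Flk1(+) mesoderm did not pass, as was so for most genes. Over all genes 15.3% were called, so not passing does not set these markers apart. Of 22 endothelial genes, 3 rose and 1 fell, with a median of 0.02. Pecam1 read 4.98 and 5.12 before and 5.30 and 4.92 after culture, and Cdh5 read 4.82 and 4.72 before and 5.10 and 4.65 after. Both lie near the lowest 25% of values on these arrays, which end at 5.09 to 5.18. Etv2, the factor that starts the endothelial and blood lineages, fell by 4.29, from 9.99 and 10.74 to 6.02 and 6.13. The angiopoietin receptor Tek rose by 4.14, from 5.02 and 4.75 to 8.61 and 9.43, Ecscr by 3.46, and Flt1, a VEGF receptor, by 2.08. Of 19 hematopoietic genes, 1 rose (Runx1, by 1.39, or 0.75 with the mean of its probe sets) and 3 fell (Lmo2 by 2.51, Myb by 1.49, Cd68 by 1.27). With the mean of its probe sets Myb changed by -0.79, below 2-fold. Ptprc read at most 4.52 in the 4 arrays.

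Among 18 cardiac sarcomere genes, 3 rose and 1 fell. Tnnc1, shared with slow skeletal muscle, rose by 4.39, Tnnt2 by 2.75 (to 7.16 and 8.11) and Actc1 by 1.92, although the call for Actc1 was lost on leaving out any of the 4 arrays. Myl7, the atrial light chain, fell by 2.97, and Myh6 changed by -0.21. Lateral plate and heart field genes rose in 5 and fell in 7 of 21 cases. Asb4, expressed in early vascular progenitors, fell by 5.86 ± 0.39, from 11.21 and 9.80 to 4.42 and 4.87. Tbx3 fell by 3.23, Irx3 by 2.85, Hoxb1 by 2.77 and Gata6 by 1.81. Tbx20 rose by 3.40, from 10.45 and 8.60 to 12.74 and 13.11, Foxf1, a factor of splanchnic mesoderm, by 2.64 and Hand1 by 1.99. Without the clone array 3 of these genes rose. None of 10 skeletal muscle genes passed. Of 31 Hox genes, 3 rose (Hoxb5 by 2.27, Hoxb4 by 1.35, Hoxb9 by 1.29) and Hoxb1 fell. With the mean of its probe sets Hoxb4 changed by 0.79, below 2-fold. In the list of adipocyte, cartilage and bone genes 3 of 16 rose (Col11a1 by 4.68, Cebpd by 2.25 and Sox6 by 1.64) and 2 fell (Lpl by 2.37 and Alpl by 1.28). Ephrin and guidance genes rose in 5 of 19 cases, with Slit2 at 2.75 and Epha2 at 2.35, and fell in 3, with Robo1 at -2.58.

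Counts of epithelial genes depended on the Flk1(+) array. Of 21 measured, 9 fell and 4 rose, and the median change was -1.38 against the parental and -0.15 against the clone array. Epcam fell by 4.64, from 11.45 and 10.35 to 5.82 and 6.70, and Esrp1, an epithelial splicing regulator, by 4.47, from 9.28 and 9.28 to 4.72 and 4.91. Cdh1, which encodes E-cadherin, read 11.38 in the parental and 8.45 in the clone Flk1(+) array and 5.52 and 7.66 in Dex- arrays. It fell by 3.32 ± 0.74 (adjusted p = 0.00278), and without Dex- replicate 1 the change was -2.25 and did not pass. The keratins Krt19 and Krt18 and the junction genes Pkp2 and Cdh3 rose, by 2.93, 1.71, 3.21 and 1.90. Without the parental array 5 epithelial genes fell and 6 rose. Whether the parental Flk1(+) sample held more epithelial or undifferentiated cells was not tested.

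Among 18 genes of primitive and visceral endoderm, 2 rose and 3 fell. Dab2, an adaptor protein of endocytosis and an endoderm marker, rose by 4.50, from 8.77 and 6.02 to 11.79 and 11.99, and Cubn rose by 1.63, or 1.34 without the clone array, which did not pass. Without probe sets that may match several transcripts the change of Cubn was 0.87 and did not pass. Apoe fell by 3.89 and Foxa1 by 1.53, and Gata4 was the other fallen member. Afp, Ttr, Sox17, Hnf4a and Sox7 did not pass. Without the parental array 5 of these genes rose. Trophoblast genes rose in 2 and fell in 1 of 10 cases, with Tfap2c, also active in early ectoderm, falling by 4.88, and Plac1 rising by 2.52. Neuroectoderm genes rose in 2 and fell in 2 of 15 cases, with Tubb3 (3.45) and Nes (1.99) risen and Otx2 and Crabp1 (-2.27) fallen. Of 18 germline genes, 3 fell (Ddx4, Morc1 and Rnf17, by 1.53, 1.52 and 1.18), from Flk1(+) values that were higher in the parental array, and without that array 1 fell, the changes of Morc1 and Rnf17 then being -0.50 and -0.37.

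**Figure D4:**
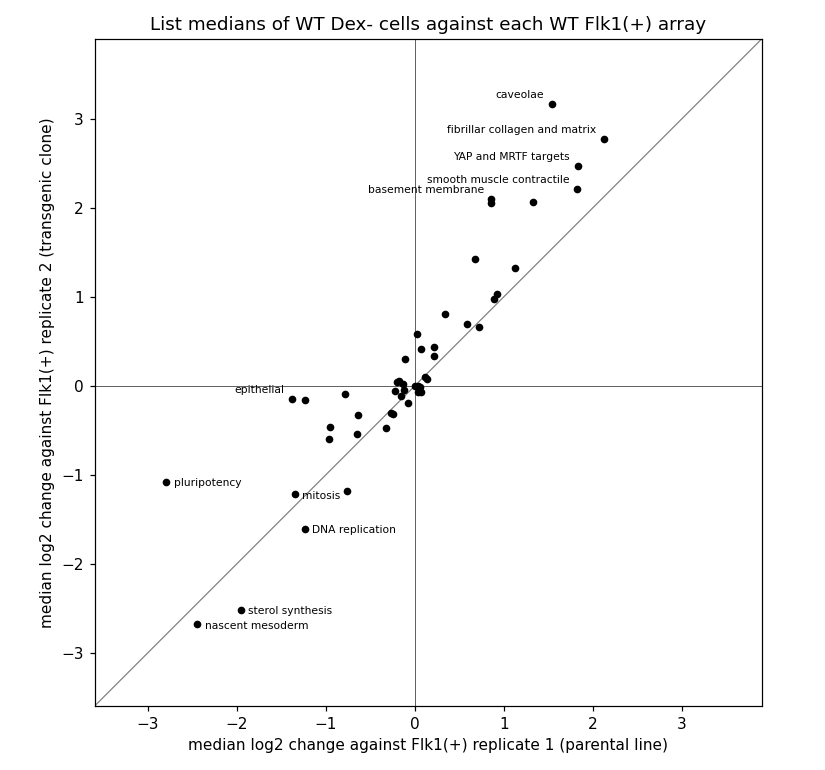
Median log2 change of each of 49 gene lists in the mean of the WT Dex- arrays, against the parental Flk1(+) array (x axis) and against the clone Flk1(+) array (y axis), with the line of equal change in grey. Nascent mesoderm, mitosis and DNA replication lie near the line, pluripotency lies at -2.80 and -1.08, and epithelial genes at -1.38 and -0.15.

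The knockout cells went through the same culture, and their change was compared gene by gene. In DKO cells 3024 genes (16.6%) were called, 8.23% of all genes rising and 8.39% falling. Of the 2779 genes called in WT cells, 1899 were called in the same direction in DKO cells, 17 in the opposite direction, and 863 in WT cells alone by these thresholds. The difference between the WT and the DKO change was itself tested, and 529 genes (2.91%) passed, 197 (1.08%) with the WT change above the DKO change and 332 (1.82%) with it below. Of the 2779 WT calls, 241 (8.7%) passed this test. Among the 529 genes, 177 had risen in DKO but were not called in WT cells, 67 had risen in WT alone, 62 had fallen in WT alone, 50 had fallen in DKO alone and 17 had moved in opposite directions. These counts rest on single arrays. Without the parental WT array 403 genes had the WT change above, without DKO Dex- replicate 1 there were 124, and without the WT clone array 566 had it below.

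Several of the largest WT decreases were smaller in DKO cells. Fst fell by 5.51 in WT cells but read 9.61 and 9.89 in DKO Flk1(+) and 10.68 and 10.41 in DKO Dex- arrays, a difference of -6.30 ± 0.49 (adjusted p = 8.59e-06). Fgf5 stayed at 9.66 and 9.87 in DKO Dex- cells (difference -5.44). Car2 read 10.26 and 10.56 there, Eomes 9.47 and 10.11, and Asb4 10.22 and 10.42, with differences of -4.52, -3.90 and -3.13. Pdgfra read 8.91 in both DKO Dex- arrays (difference -2.54). Tfap2c differed by -3.32 and Nodal by -1.89. Conversely, Aplnr fell further in DKO cells, to 6.14 and 5.47 (difference 4.66).

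Some WT increases were larger than the change in DKO cells. Cxcl12 rose by 3.38 in DKO cells, with a difference of 3.35 ± 0.41 (adjusted p = 0.000295), Gas6 by 3.57 and Cemip by 2.37, with differences of 2.74 and 3.70. Aard went from 7.94 and 6.64 to 12.74 and 12.03 in WT cells and changed by 0.29 in DKO cells (difference 4.81). The zinc finger gene Zfp711, Foxf1 and Stard8 rose in WT and fell in DKO cells, with differences of 4.81, 4.23 and 3.75. Flt1 likewise rose by 2.08 in WT and fell by 1.10 in DKO cells (difference 3.18). In the smooth muscle contractile list 3 of 22 members passed. Myl9 (difference 2.87) and Lmod1 (1.06) rose more in WT cells, and Des, for the filament protein desmin, changed by 0.03 in WT and rose by 2.24 in DKO cells (difference -2.21). Acta2, which rose by 3.44 in DKO cells, did not pass (1.47 ± 0.57, adjusted p = 0.23). DNA replication, mitosis, ribosome biogenesis and basement membrane lists had no member that passed. Over all genes 2.91% passed, and other lists, such as those of pericyte, caveola and cardiac sarcomere genes, had none either. Having no passing member therefore does not set these lists apart. In the fibrillar collagen and matrix list 2 of 24 members passed, both with a lower change in WT cells. They were the proteoglycan gene Bgn (0.42 in WT and 3.59 in DKO cells, difference -3.17) and Fbln2, for fibulin 2 (0.44 and 3.14, difference -2.70), and neither was called in WT cells. Col8a1, Postn and Col1a1 did not pass, with differences of -0.72, 1.35 and 0.55. A gene that did not pass is not shown to change alike in both genotypes.

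**Figure D5:**
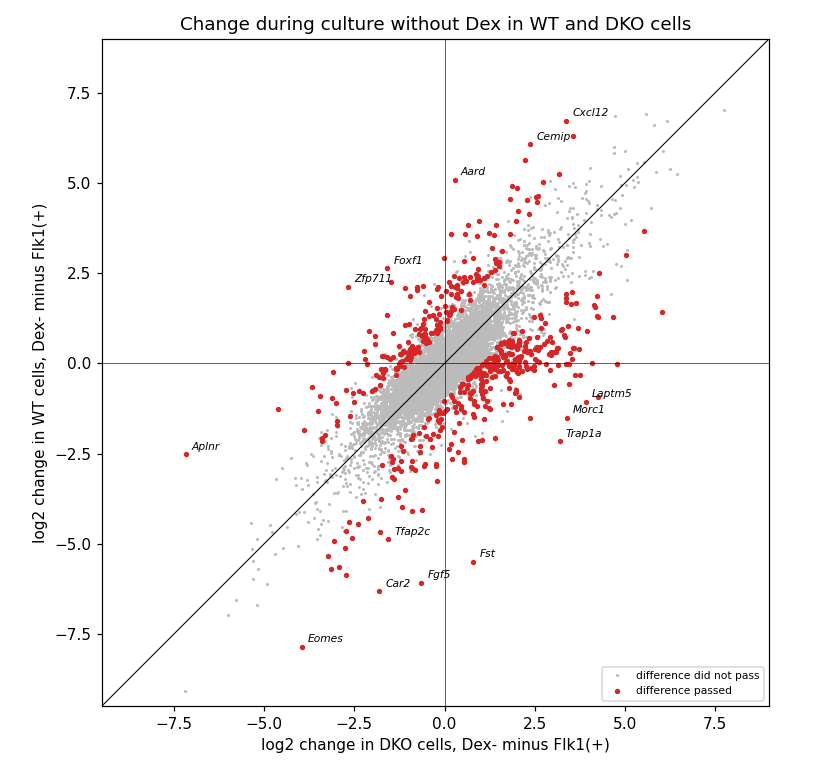
Log2 change from Flk1(+) to Dex- cells of 18193 genes in DKO cells (x axis) and WT cells (y axis), with the 529 genes whose changes differed by the test in red and the line of equal change in black. Fst, Fgf5 and Car2 fell in WT cells and lie below the line, whereas Aard, Foxf1, Zfp711 and Aplnr lie above it.

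Germline genes differed between the genotypes in 7 of 18 cases, with every one of the 7 lower in the WT change. Their median change was -0.01 in WT and 1.20 in DKO cells, where 10 rose. Morc1 rose by 3.39 in DKO cells (difference -4.90). Trap1a and Laptm5 rose by 3.19 and 3.92 in DKO cells, and in WT cells Trap1a fell by 2.16 while Laptm5 did not pass (-1.06), with differences of -5.35 and -4.98. In WT cells the Flk1(+) arrays of these genes were far apart, at 7.99 and 5.48 for Trap1a and 7.93 and 4.59 for Laptm5. Without the parental array the change of Trap1a was -0.90 and did not pass.

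Dex- cells were also set beside WT Dex+ cells, which had been cultured on with Dex. These values share the Dex- arrays with the comparison above. Between Dex+ and Dex- cells 291 genes (1.6%) passed, 1.15% of all genes higher and 0.451% lower in Dex+ cells. Acta2 (15.12 and 15.14 in Dex+ arrays), Tagln, Cdkn1a and Col8a1 (12.66 and 13.07) did not pass. Genes that had fallen in Dex- cells and passed as higher in Dex+ cells included those of Pdgfra (9.12 and 8.97 in Dex+, a difference of 2.39), Kdr (8.48 and 9.84, 1.44), Fst (8.97 and 9.43, 3.68), Apoe (3.61), Rspo3 (3.58) and Lpl (3.47). Gata4 read 7.60 and 7.70 in Dex+ arrays (1.11).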

How the data were processed

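Expression was measured on 20 Affymetrix MOE430v2 arrays in 10 groups of 2. Per the labels and the study's methods, the authors deposited log2 expression values made by RMA from the scanned arrays (RMA is named in the submitters' processing notes, version not given in the sources used here), with RNA amplified by a two-cycle labelling protocol. The duplicates are described as independent experiments. Of 45101 probe sets, 64 controls were left out, 34945 carried 1 gene symbol, 932 several and 9224 none in the annotation used, which left 18193 genes. Scan day and chip lot were read from the arrays' experiment records.

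The values were tested with limma 3.58.1 (R 4.3.3) with 1 mean per group over all 20 arrays (10 residual and 4.54 prior degrees of freedom). Contrasts were WT Dex- minus WT Flk1(+), the same for DKO, and their difference. A gene passed at a Benjamini-Hochberg adjusted p under 0.05 and a change of 2-fold or more. The study's methods name SAM for these arrays, which was not run. An exact permutation test of 2 against 2 arrays cannot give a two-sided p under 0.333. With 2 arrays a group, their number limits the precision. The procedure was tested on simulated data.

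Genes were named by a rule: the 12 largest increases and 12 largest decreases among passing genes with arrays that did not overlap, up to 6 members of each of 49 gene lists with the largest absolute change, the 5 largest differences from DKO in each direction, and Kdr, Pdgfra, Acta2, Gata4, Dnmt3a, Dnmt3b and Cdh1. Genes named beyond it are members of these lists and were chosen after their values were seen. The lists hold 889 entries, of which 842 were measured and 5 genes stand in more than 1 list. The comparison, its lists and the motifs were chosen with earlier results of these data known. Promoter sequences are RefSeq's, of build GRCm38.p6. Alternatives covered single arrays, scan day, pairing, normalization, the choice of probe set, low values, the variance model and the arrays fitted. Replicate numbers were not used as pairs in the main fit, and whether they pair the arrays cannot be told.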

Additional observations from a re-analysis of the deposited data

Results flagged for a closer look

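For 57 of the named genes the culture change differed between WT and DKO cells by the limma test of the difference (adjusted p under 0.05, at least 2-fold). Each value is the WT log2 change minus the DKO log2 change, so a negative value stands for a lower change in WT cells. The most negative differences were those of Fst (-6.30), Fgf5 (-5.44), Trap1a (-5.35), Xist (-5.20), Laptm5 (-4.98), Morc1 (-4.90), Car2 (-4.52), Eomes (-3.90), Tfap2c (-3.32), Id2 (-3.25). Next came Asb4 (-3.13), Tex19.1 (-3.01), Ddx4 (-2.64), Mt1 (-2.59), Pdgfra (-2.54), Cd68 (-2.54), Lpl (-2.49), Dnmt3b (-2.37), Tbx18 (-2.36), H2-D1 (-2.23). Dnmt3b is itself knocked out in DKO cells, so its difference does not compare an intact gene in both genotypes. Smaller negative differences were those of H2-K1 (-2.13), Esrp1 (-2.06), Twist1 (-1.94), Nodal (-1.89), Adamts5 (-1.86), Mt2 (-1.79), Dppa5a (-1.75), Acta1 (-1.48), Robo1 (-1.10). The most positive differences were those of Aard (4.81), Zfp711 (4.81), Aplnr (4.66), Foxf1 (4.23), Stard8 (3.75), Cemip (3.70), Cxcl12 (3.35), Flt1 (3.18), Myl9 (2.87), Gas6 (2.74). These were followed by Dkk2 (2.65), Stmn2 (2.57), Ccnd2 (2.42), Edn1 (2.26), Nnat (2.19), Cd44 (2.08), Hmga2 (2.06), Adamts9 (1.83), Fgfr3 (1.76), Cebpd (1.74). Smaller positive differences were those of Hoxb5 (1.67), Igf1 (1.39), Hoxb2 (1.39), Uhrf1 (1.38), S100a4 (1.28), Fos (1.27), Epha2 (1.26), Hoxb6 (1.05).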

How the results depend on the processing

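None of the 256 named genes that passed changed direction under the alternatives run, and of all 2779 called genes 1 moved the other way within scan day 4. Fewer genes rose than fell in the main fit. This balance reversed without the parental array, without Dex- replicate 1, with arrays centred on their median (1407 risen, 1351 fallen) and with the mean of probe sets (1071 and 1070). Without the parental array the balance of the WT and DKO difference reversed as well. So did that of some lists, epithelial genes among them. Leaving out single arrays of the comparison gave between 1112 and 1671 risen and between 1347 and 1516 fallen genes, so 2558 to 3187 in all, the lowest without the clone and the highest without the parental Flk1(+) array. For the difference between WT and DKO, single arrays gave 383 to 753 genes in all, 124 to 403 with the WT change above and 237 to 566 with it below. With a replicate block, 1371 genes rose, 1437 fell and 644 differed between genotypes. Deviations of same-numbered arrays correlated by -0.167 in WT and 0.202 in DKO cells. The Flk1(+) deviations also hold the differences of line, chip lot and scan day, so whether the numbers pair the arrays cannot be told. With crossed pairs, chosen after seeing the data, 2808 genes were called and 643 differed. The remaining alternatives gave 2141 (mean of all probe sets of a gene) to 2794 (quantile normalization) called genes, the 4 arrays fitted alone gave 2298 and scan day as a block 2772. Between 13 and 17 lists had a median change of at least 1 in size, against 14. Of 256 named genes that passed, 200 kept call and direction in every fit that held them. Not all fits held all of them, and the fit without the lowest genes held 229. The call was lost for 37 with the 4 arrays alone, 14 with the mean of probe sets and 8 to 16 without a single array. The cause was not tested. List counts that moved by over 1.5 times and by 2 or more genes without 1 array, beside those given above, were those of ephrins and guidance (3 risen without Dex- replicate 2, 5 fallen without the clone array), retinoic acid genes (2 fallen without the clone array), BMP genes (4 risen without Dex- replicate 1) and germline genes (1 fallen without Dex- replicate 2). Counts of 0 to 2 genes in other lists moved by 1. Signal over background is not given in these values, so low levels have no floor here.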
